A study of Homo sapiens with 7 samples.

Results

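Translation initiation factor genes were examined by RNA sequencing in 2 cell lines of T-cell acute lymphoblastic leukaemia, PF-382 and MOLT-14, after the cohesin gene STAG2 was inactivated in the one and supplied to the other. The members were all genes annotated as protein-coding whose symbol starts with EIF followed by a digit from 1 to 6, which gave 56 of 60662 genes (20004 of them protein-coding). The symbols alone chose the members, and no measured value was used. PF-382, an established human line, had 2 wild-type libraries without treatment and 3 libraries of cells with a STAG2 knockout, made by delivering Cas9 and guide RNA as a ribonucleoprotein. MOLT-14, also an established human line, had 1 library of cells transduced with an empty vector and 1 of cells transduced with STAG2. All groups were grown in the same medium, and total RNA was taken from freshly cultured live cells. The labels give each PF-382 library a code, whose letters are SA in both wild-type libraries and knockout 1 and SB in knockouts 2 and 3. They do not say what the letters stand for or whether libraries came from separate cultures or clones, so the p-values measure only the spread between these libraries. The wild-type PF-382 cells are not described as mock-edited.

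Initiation factors bring the small ribosomal subunit and the initiator tRNA to an mRNA and set the reading frame. The eIF2 complex carries the initiator tRNA as a ternary complex with GTP, eIF1 and eIF1A guard the choice of start codon, and eIF2B recharges eIF2 with GTP. The eIF3 complex is the scaffold on the small subunit, while eIF4E binds the cap, eIF4G bridges cap and ribosome, and eIF4A unwinds the leader. Kinases that phosphorylate the alpha subunit of eIF2 and small proteins that bind eIF4E hold the pathway back under stress or when mTORC1 is inactive. Leukaemic T cells, like other fast-growing cells, depend on high rates of protein synthesis.

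STAG2, the targeted gene, had 1.15 CPM (counts scaled to a fixed library total, with TMM factors) in MOLT-14 with empty vector and 137 CPM in MOLT-14 with STAG2. In PF-382 it had 334 and 567 CPM in wild type and 256, 180 and 195 CPM in the libraries labelled knockout, a log2 change of -1.13 with an adjusted p of 0.0218. A small edit need not remove a transcript, so the RNA checks the knockout labels only in part. Libraries held 32609485 to 93970572 counts, with all 3 knockout libraries deeper than the others. All 8 T-lineage markers were detected in all 7 libraries (summed level 1610 to 2534 CPM), and erythroid and megakaryocyte markers were at 0. Myeloid markers summed to 0.471 CPM at most, B-lineage markers to 3.83 to 41.4 CPM, and natural killer markers to 13.4 to 23.5 CPM. Nearly all of the B-lineage sum was CD79A, and most of the natural killer sum was NCAM1 in PF-382 and NKG7 in MOLT-14. Short RNA genes took 21.0% and 14.9% of the counts in wild type, 11.96% to 13.98% in knockout, and 4.87% and 9.27% in MOLT-14, and the part of this difference in the results below was not tested beyond a fit of protein-coding genes alone. In bulk RNA, fewer cells with a transcript and less transcript per cell cannot be told apart.

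Of the 56 members, 54 passed the filter on low counts. EIF4E1B, an oocyte form of eIF4E, had at most 0.0410 CPM in any library, and EIF1AY, the Y-linked copy of EIF1AX, was not tested and its levels are not given. For 24 members the counts were fractional in at least 1 library, as RSEM gives where it divides reads among genes, and the genes that shared them were not identified here. These include EIF3C and EIF3CL, EIF5A and EIF5AL1, EIF2S3 and EIF2S3B, EIF4A1, EIF4EBP3, EIF1AX, EIF3E, EIF3F, EIF3L, EIF4B and EIF6, and the values of each such gene are uncertain to that extent. Members together took 1.27% and 1.22% of the protein-coding counts in PF-382 wild type and 1.33%, 1.31% and 1.27% in knockout. In MOLT-14 the share was 1.20% with empty vector and 1.20% with STAG2.

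The letters at the start of the transcript divided the members, and they are shown here because the resulting classes had different changes in PF-382. A C followed by pyrimidines at the cap, the 5′ terminal oligopyrimidine tract, marks many mRNAs of ribosomal proteins and translation factors whose translation follows mTORC1. The RefSeq table used here (GRCh38.p14) held an annotated start for 47 of the 56 members. A C followed by at least 4 pyrimidines stood at the start of 10 of them (21.3%), against 946 of 14906 protein-coding genes (6.35%) and 4.07% of all starts in the table. The first 20 bases are given 5′ to 3′, with the leading run of pyrimidines in capitals where it met that rule. In 9 of the 10 members they read as follows.
EIF4B, chr12:53006456-53006475, plus strand: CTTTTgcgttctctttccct
EIF3F, chr11:7987337-7987356, plus strand: CTTCTTTCTCgacaagatgg
EIF2S3, chrX:24054956-24054975, plus strand: CTCTTTTggcaacatggcgg
EIF2A, chr3:150546787-150546806, plus strand: CTCTTTCCgggacaacatgg
EIF2D, chr1:206612446-206612465, minus strand: CCTTTTCgcggccgggcccc
EIF3D, chr22:36529147-36529166, minus strand: CTCTTTTCCTggtttctcaa
EIF3K, chr19:38619188-38619207, plus strand: CTCTTCCTgttcccgtcctt
EIF3M, chr11:32583831-32583850, plus strand: CTTTTCCggtcggcgtggtc
EIF4A2, chr3:186783577-186783596, plus strand: CTTTTCagtcgggcgctgag
EIF2S3B was the remaining one. For contrast, the starts of 5 members that changed in PF-382 and lack the run are these.
EIF1AX, chrX:20141819-20141838, minus strand: gccatttgctgccgccgagc
EIF3B, chr7:2354827-2354846, plus strand: atggctgggctgtagccgtc
EIF4A1, chr17:7572825-7572844, plus strand: cctagtttctaaggatcatg
EIF3J, chr15:44537147-44537166, plus strand: aactcctcgctagctctccc
EIF1, chr17:41688885-41688904, plus strand: gccccagtcactgagccgcc
An annotated start need not be the one used in these cells, and the files hold no start sites.

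More initiation factor genes rose than fell in the STAG2 knockout of PF-382. Of the 54 members tested, 23 rose, 7 fell and 24 did not pass (edgeR's quasi-likelihood test, two-sided, Benjamini-Hochberg adjusted p under 0.05 over 17442 genes). Over all genes tested, 30.4% were called, 15.8% as higher and 14.6% as lower, and among protein-coding genes 19.9% were higher and 12.4% lower. The share of members that rose was thus 42.6%, above both backgrounds, while the share that fell, 13.0%, was near them. The median log2 change was 0.32 over the members, -0.02 over all genes and 0.09 over protein-coding genes. The 3 knockout libraries lay above both wild-type libraries for 27 members and below both for 12, and the groups overlapped for 15, whereas among all genes tested 60% had groups that did not overlap (31.8% above and 28.3% below). Every one of the 30 called members had groups that did not overlap. The call rests on the same libraries, so this is not separate support, and the share among all called genes was not computed. Under upper-quartile scaling, where the median over all genes was -0.18, 19 members rose and 11 fell, and 33.8% instead of 52.0% of all calls were higher. The count of falls depended on which libraries were fitted, since 3, 0 and 1 members fell without knockout 1, 2 and 3. In those fits the share of all genes called also dropped, from 30.4% to 15.6%, 14.1% and 13.7%. Calls described below as lost without a knockout library come from these fits. Without wild type 1 or 2, which leaves 1 wild-type library, the median log2 change over the members was 0.27 and 0.40. Because no wild-type library has the letters SB, a fit with the code letters as a second term, chosen after seeing the data, compares the knockout within SA, where it has 1 library. In that fit 2.51% of all genes were called (1.67% higher and 0.843% lower), and of the members 8 rose (EIF5A, EIF1AX, EIF3B, EIF3C, EIF3CL, EIF3J, EIF4G1 and EIF6, with adjusted p of 0.0434 to 0.0497 by edgeR) and none fell, with 23 higher and 5 lower at an unadjusted p under 0.05. Over all genes, 4798 of 17442 had an unadjusted p under 0.05 in that fit, in either direction. All 30 members called without the term kept their direction in it.

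**Figure D1:**
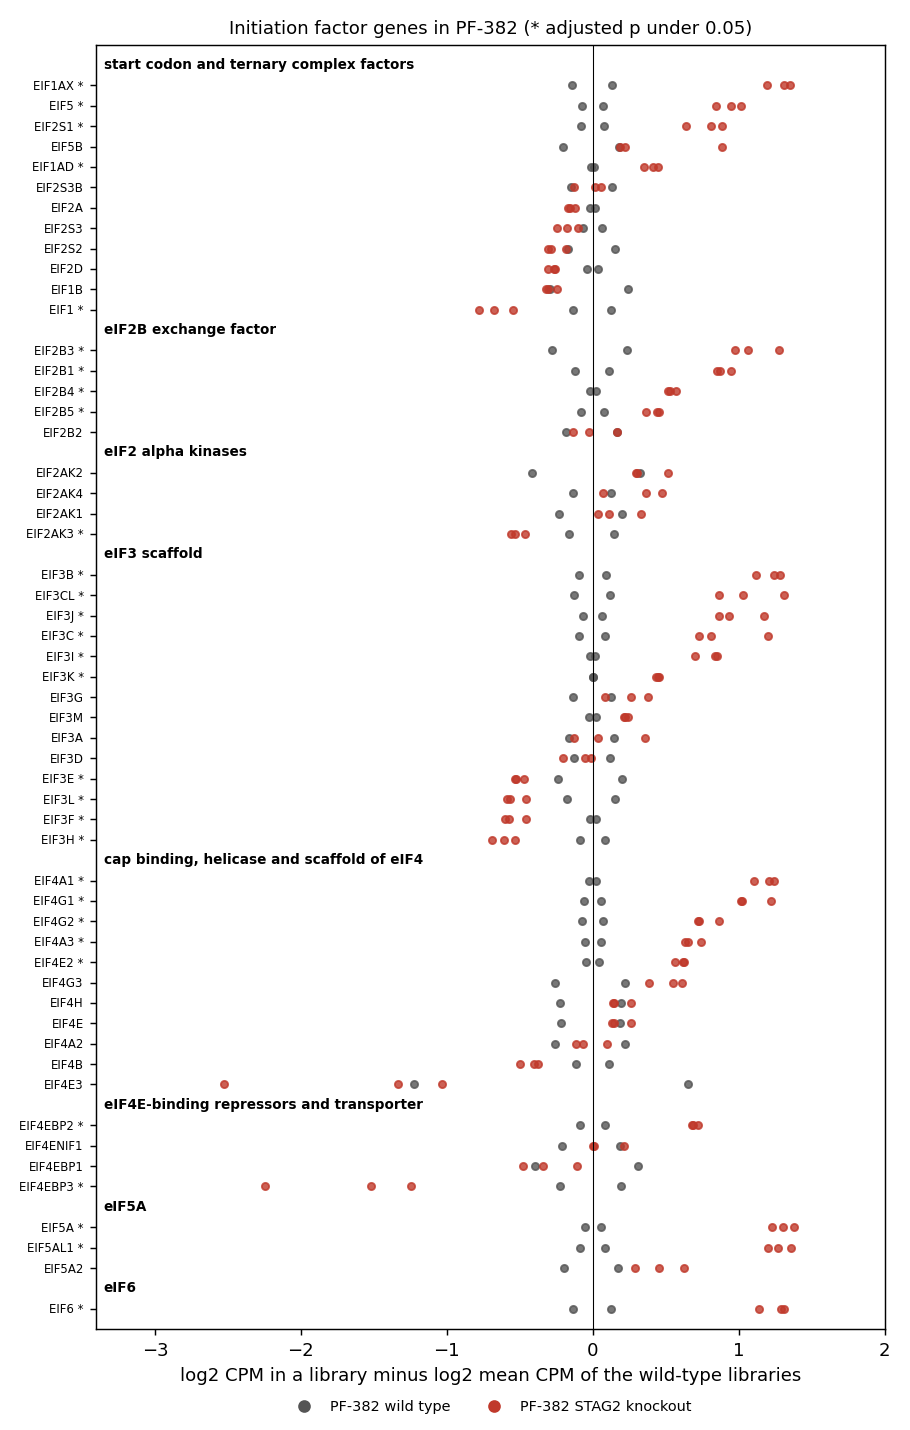
Initiation factor genes in PF-382, grouped by role. Each point is 1 library, placed at its log2 CPM minus the log2 of the mean CPM of the wild-type libraries, with 2 wild-type libraries in grey and 3 knockout libraries in red; an asterisk marks an adjusted p under 0.05. Of the 54 genes, 23 rose and 7 fell, with EIF5A, EIF1AX and EIF6 among the rises and EIF4EBP3, EIF1 and EIF3H among the falls.

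Among the 12 start codon and ternary complex factors tested, 4 rose, 1 fell and 7 did not pass. EIF1AX, the gene of eIF1A that promotes scanning and start codon selection (chromosome X, 20124518 to 20141844, minus strand), had 77.6 and 64.2 CPM in wild type and 181, 162 and 176 CPM in knockout. It rose 2.39-fold (log2 change 1.26 ± 0.13 SE, adjusted p 0.00316). EIF1, whose product works beside eIF1A and rejects poor start codons (chromosome 17, 41688885 to 41692668, plus strand), went the other way. It had 204 and 170.3 CPM in wild type and 128, 109 and 117 CPM in knockout, a fall with a log2 change of -0.69 ± 0.13 and an adjusted p of 0.0130. No library of one group reached the level of the other for either gene. EIF1 did not pass once knockout 2 or 3 was left out (adjusted p 0.0605 and 0.0556).

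EIF5 encodes the protein that triggers GTP hydrolysis on eIF2 at the start codon. It had 211 and 191 CPM in wild type and 406, 387 and 361 CPM in knockout (log2 change 0.91 ± 0.13, adjusted p 0.00565). Of the 3 subunits of eIF2, 1 passed the test. EIF2S1, the alpha subunit that stress kinases phosphorylate, rose from 106 and 119 to 207, 197 and 175 CPM (log2 change 0.75 ± 0.13, adjusted p 0.00986). EIF2S2, the beta subunit, had 407 and 324 CPM in wild type and 322, 296 and 299.6 CPM in knockout (adjusted p 0.164), and EIF2S3, the gamma subunit, had 552 and 602 CPM in wild type and 509.8, 486 and 537 CPM in knockout (adjusted p 0.253). EIF1AD, which carries an eIF1A-like domain, rose by 0.37 on the log2 scale (adjusted p 0.0455), a call lost without any 1 of the knockout libraries (adjusted p 0.117 to 0.150), with upper-quartile scaling (0.183), with a minimum of 1 CPM (0.0760) and among protein-coding genes alone (0.0972). The others that did not pass were EIF1B, EIF2A, EIF2D, EIF2S3B and EIF5B, with log2 changes from -0.32 (EIF1B) to 0.44 (EIF5B).

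Of the 5 genes of eIF2B, the exchange factor that the integrated stress response blocks, 4 rose and 1 did not pass. EIF2B1, the alpha subunit that senses phosphorylated eIF2, had 38.1 and 32.4 CPM in wild type and 67.9, 64.4 and 63.5 CPM in knockout (log2 change 0.86 ± 0.12, adjusted p 0.00581). EIF2B3, the gamma subunit of the catalytic part, rose from 20.3 and 28.99 to 48.5, 51.5 and 59.6 CPM (log2 change 1.08 ± 0.19, adjusted p 0.00976). EIF2B4 and EIF2B5, the delta and epsilon subunits, rose by 0.51 and 0.39 (adjusted p 0.0248 and 0.0414), and EIF2B5 is the catalytic subunit. Both of these calls were lost without any 1 of the knockout libraries (adjusted p 0.0781 to 0.107 and 0.111 to 0.141) and with upper-quartile scaling (0.0764 and 0.135), and that of EIF2B5 also without wild type 1 (0.0642), with a minimum of 1 CPM (0.0654) and among protein-coding genes alone (0.0750). EIF2B2, the beta subunit, had 33.9 and 43.2 CPM in wild type and 43.3, 37.8 and 35.1 CPM in knockout, and its groups overlapped. It was also the most abundant gene of the complex per length, at a mean of 51.6 TPM over the 7 libraries when TPM is rescaled to the protein-coding genes.

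Of the 4 kinases of eIF2 alpha, 1 fell and 3 did not pass. EIF2AK3, the endoplasmic reticulum kinase PERK, had 44.1 and 54.8 CPM in wild type and 33.6, 34.2 and 35.9 CPM in knockout (log2 change -0.55 ± 0.13, adjusted p 0.0252). Its call was lost without any 1 of the knockout libraries (adjusted p 0.0729 to 0.0880), and its log2 change was -0.35 without wild type 2. EIF2AK1, the haem-regulated kinase HRI, was the most abundant of the 4 per length, with 89.4 and 121 CPM in wild type and 132, 113 and 107 CPM in knockout. It did not pass (adjusted p 0.570), and neither did EIF2AK2, the double-stranded RNA sensor PKR (log2 change 0.35 ± 0.22, adjusted p 0.275), or EIF2AK4, the amino acid sensor GCN2 (log2 change 0.29 ± 0.16, adjusted p 0.219).

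The genes of eIF3 moved in both directions. Of 14 tested, 6 rose, 4 fell and 4 did not pass. EIF3B, a WD40 subunit that binds near the mRNA channel (chromosome 7, 2354086 to 2380745, plus strand), had 119.9 and 105 CPM in wild type and 275, 266 and 244 CPM in knockout (log2 change 1.19 ± 0.13, adjusted p 0.00325). EIF3J, a loosely bound subunit, had 31.2 and 34.2 CPM in wild type and 73.6, 59.6 and 62.5 CPM in knockout (log2 change 0.97 ± 0.14, adjusted p 0.00614). EIF3I, the other WD40 subunit, had 170.4 and 174 CPM in wild type and 279.9, 307 and 311 CPM in knockout (log2 change 0.77 ± 0.12, adjusted p 0.00684). In these genes the knockout libraries were all above the wild-type ones.

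EIF3CL, a near-identical copy of EIF3C, rose from 61.5 and 51.7 to 141, 115 and 103 CPM (log2 change 1.05 ± 0.17, adjusted p 0.00806), and EIF3C rose by 0.90 (adjusted p 0.0133). Both had fractional counts in all 7 libraries, so reads of the one may be counted for the other. EIF3K rose by 0.42 (adjusted p 0.0278), a call lost without any 1 of the knockout libraries (adjusted p 0.0927 to 0.115), with upper-quartile scaling (0.0952) and among protein-coding genes alone (0.0566).

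The 4 that fell were among the abundant subunits. EIF3H, a subunit with an MPN domain, had 319 and 358 CPM in wild type and 234, 222 and 209.9 CPM in knockout (log2 change -0.64 ± 0.12, adjusted p 0.0132). EIF3F, the other MPN subunit, had 379 and 389.8 CPM in wild type and 253, 279.7 and 258 CPM in knockout (log2 change -0.57 ± 0.12, adjusted p 0.0148). EIF3L, a PCI-domain subunit (chromosome 22, 37848868 to 37889407, plus strand), had 685 and 859.8 CPM in wild type and 522, 561 and 514 CPM in knockout (log2 change -0.56 ± 0.15, adjusted p 0.0311). In each of the 3 both wild-type libraries were above every knockout library. EIF3E, another PCI-domain subunit, had 522 and 708 CPM in wild type and 427, 443 and 425 CPM in knockout (log2 change -0.54 ± 0.16, adjusted p 0.0459), and here the 2 wild-type libraries also stood apart from each other. Without any 1 of the knockout libraries the calls of EIF3F, EIF3L and EIF3E were lost (adjusted p 0.0580 to 0.0665, 0.0946 to 0.107 and 0.124 to 0.130), and that of EIF3H was lost without knockout 2 or 3 (0.0635 and 0.0592). Without wild type 2 the log2 change was -0.27 for EIF3E (adjusted p 0.0849) and -0.36 for EIF3L (0.0457), and with no filter on low counts neither passed (0.0731 and 0.0522).

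All 4 falls were of subunits in the structural core of the complex, by a grouping made after the values were seen. Of the 8 subunits of the PCI and MPN octamer (a, c, e, f, h, k, l and m) 2 rose and 4 fell, with a median log2 change of -0.23. Of the 5 subunits outside it (b, d, g, i and j) 3 rose and none fell, with a median of 0.77. EIF3A, EIF3D, EIF3G and EIF3M did not pass, with log2 changes from -0.12 (EIF3D) to 0.22 (EIF3G). On the per-length scale of TPM among protein-coding genes, EIF3J was the lowest and EIF3L the highest of 13 subunits in all 7 libraries (EIF3CL left out). The ratio of highest to lowest was 40.5 and 46.2 in wild type, 12.1, 16.7 and 14.8 in knockout, and 10.3 and 15.3 in MOLT-14 with empty vector and with STAG2.

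**Figure D2:**
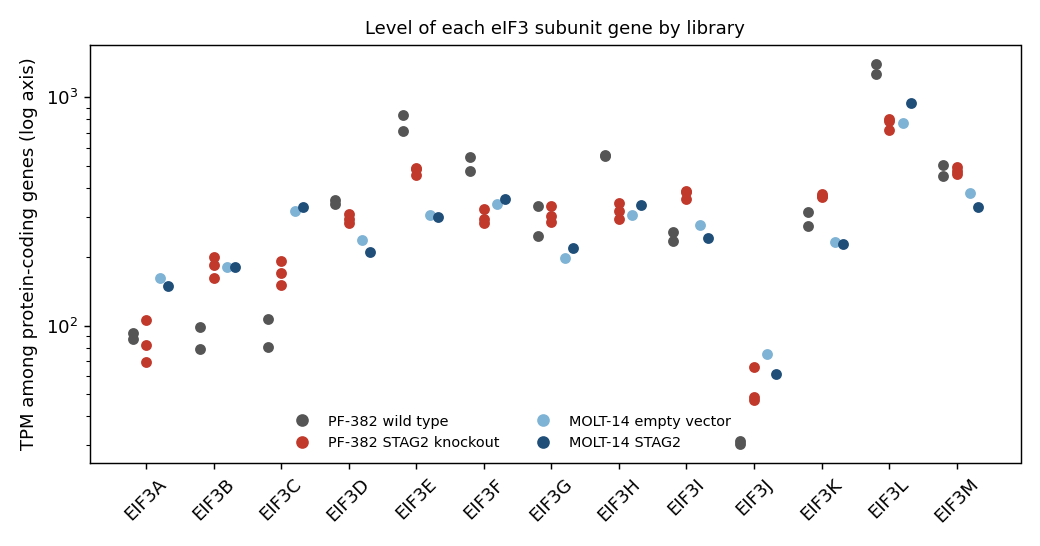
Level of 13 eIF3 subunit genes in each library, as TPM rescaled to the protein-coding genes on a log axis. Each point is 1 library, with PF-382 wild type in grey, PF-382 knockout in red and MOLT-14 in blue. EIF3L lies highest and EIF3J lowest in every library, and the ratio between them is 40.5 and 46.2 in wild type and 12.1 to 16.7 in knockout.

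Of the 11 eIF4 genes tested, 5 rose and none fell. EIF4A1, the main cap-complex helicase (chromosome 17, 7572706 to 7579005, plus strand), was the most abundant of them per length. It had 414 and 401 CPM in wild type and 877, 943 and 961 CPM in knockout, a rise of 2.23-fold (log2 change 1.16 ± 0.13, adjusted p 0.00335). EIF4G1, the main scaffold between cap and ribosome, had 223 and 205 CPM in wild type and 498, 431 and 433 CPM in knockout (log2 change 1.06 ± 0.14, adjusted p 0.00451). Both genes were higher in every knockout library than in either wild-type library.

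EIF4A3, the helicase of the exon junction complex and not of the cap complex, rose by 0.65 (adjusted p 0.00841). EIF4G2, a scaffold that lacks the eIF4E-binding part, rose by 0.74 (adjusted p 0.0110), with a call lost without knockout 2 or 3 (0.0550 and 0.0573). EIF4E2, a cap-binding relative that represses some mRNAs, rose by 0.58 (adjusted p 0.0117) and was lost without any 1 of the knockout libraries (0.0511 to 0.0584). EIF4E, the cap-binding protein itself, had 109.7 and 146 CPM in wild type and 140.1, 141 and 153 CPM in knockout and did not pass (log2 change 0.15 ± 0.15, adjusted p 0.463). EIF4A2, the paralog of EIF4A1, did not pass either (378 and 528 against 432, 418 and 486 CPM, adjusted p 0.841). EIF4B, which stimulates eIF4A and follows mTORC1 signalling, had 1231 and 1439 CPM in wild type and 1009, 1030.3 and 944 CPM in knockout. Its groups did not overlap, and its adjusted p of 0.0504 missed the threshold. EIF4H, EIF4G3 and EIF4E3 did not pass.

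Of the 4 proteins that bind eIF4E, EIF4EBP2 rose and EIF4EBP3 fell. EIF4EBP2, a repressor released from eIF4E when mTORC1 phosphorylates it, rose by 0.67 (adjusted p 0.0101). EIF4EBP3, a related repressor (chromosome 5, 140547666 to 140549578, plus strand), had 7.91 and 10.6 CPM in wild type and 3.90, 3.23 and 1.95 CPM in knockout. Its log2 change of -1.64 ± 0.33 had an adjusted p of 0.0149, and 0.0522 without knockout 2. EIF4EBP1, the most abundant of the 4 per length, had 101 and 61.6 CPM in wild type and 64.2, 75.2 and 58.4 CPM in knockout and overlapping groups (adjusted p 0.295). EIF4ENIF1, which carries eIF4E into the nucleus, did not pass (adjusted p 0.835).

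Of the 3 eIF5A genes 2 rose, as did EIF6. EIF5A, which carries hypusine and helps ribosomes past stalling sequences (chromosome 17, 7306999 to 7312463, plus strand), had 153 and 142 CPM in wild type and 382, 364 and 345 CPM in knockout. Its 2.43-fold rise had a log2 change of 1.28 ± 0.12 and the smallest adjusted p among the members (0.00276). EIF5AL1 is a near-copy that may share reads with EIF5A. The near-copy had 4.03 and 3.59 CPM in wild type and 9.17, 9.77 and 8.75 CPM in knockout (log2 change 1.25 ± 0.20, adjusted p 0.00739). EIF5A2, the second expressed gene of this factor, had 31.5 and 24.3 CPM in wild type and 34.03, 38.3 and 43.1 CPM in knockout and did not pass (log2 change 0.44 ± 0.17, adjusted p 0.0892), although its groups did not overlap. EIF6, which keeps the large ribosomal subunit from joining too early (chromosome 20, 35278911 to 35284985, minus strand), had 82.5 and 68.8 CPM in wild type and 166, 185 and 187 CPM in knockout (log2 change 1.22 ± 0.13, adjusted p 0.00330).

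Ratios of 2 genes within a library do not depend on scaling, and some of them differed widely between the PF-382 groups. The pairs were chosen after the values were seen, so the ratios of deposited TPM are a description without a test. EIF1 over EIF1AX was 7.99 and 7.39 in wild type and 2.22, 2.001 and 1.91 in knockout, against 5.80 and 5.67 in MOLT-14. EIF3L over EIF3B was 12.8 and 17.8 in wild type and 4.003, 4.25 and 4.44 in knockout, against 4.28 and 5.21 in MOLT-14. The helicase ratio EIF4A1 over EIF4A2 was 1.51 and 1.06 in wild type and 2.86, 3.14 and 2.85 in knockout. EIF4G1 over EIF4G2 was 0.286 and 0.306 in wild type and 0.447, 0.390 and 0.356 in knockout, and was higher, at 0.720 and 0.747, in MOLT-14. EIF4E over its repressor EIF4EBP2 was 5.42 and 5.31 in wild type and 3.44, 3.87 and 3.89 in knockout. EIF5A over EIF5A2 was 9.39 and 10.7 in wild type and 26.5, 19.8 and 17.7 in knockout. EIF4E over EIF4EBP1 was 0.629 and 1.12 in wild type and 1.05, 0.976 and 1.25 in knockout, and its groups overlapped. The groups did not overlap in the other 6 of the 7 pairs.

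**Figure D3:**
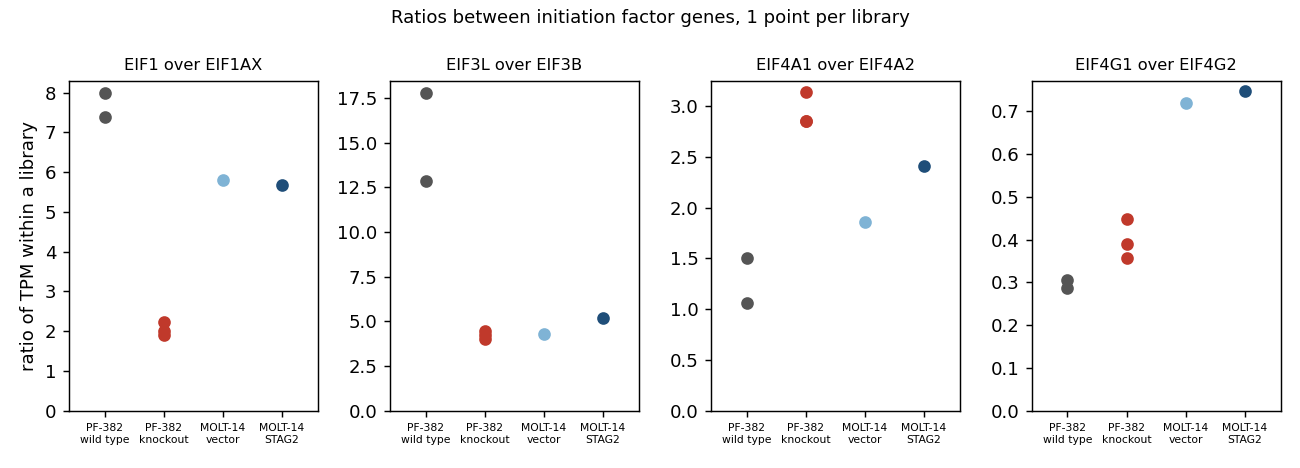
Ratio of deposited TPM between the genes named above each panel, 1 point per library, by group on the horizontal axis. EIF1 over EIF1AX is 7.39 and 7.99 in PF-382 wild type and 1.91 to 2.22 in knockout, and EIF3L over EIF3B is 12.8 and 17.8 against 4.003 to 4.44.

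Genes that work with the initiation factors but carry other symbols were taken from 3 lists. Of 22 initiation partners tested, 8 rose (36.4%) and 3 fell (13.6%), against 19.9% and 12.4% of protein-coding genes. ABCE1, which recycles ribosomes, had 178 and 170.3 CPM in wild type and 345, 329 and 342 CPM in knockout (log2 change 0.93 ± 0.11, adjusted p 0.00405). DENR, which with MCTS1 supports re-initiation, rose by 0.84 (adjusted p 0.00544), and BZW2, a relative of eIF5, rose by 0.68 (adjusted p 0.0114). PDCD4, an inhibitor of eIF4A, fell from 49.8 and 53.6 to 16.8, 16.2 and 12.04 CPM (log2 change -1.81 ± 0.17, adjusted p 0.00270). PPP1R15A, the stress-induced subunit that directs a phosphatase to eIF2 alpha, fell from 45.6 and 43.01 to 12.6, 17.4 and 16.04 CPM (log2 change -1.55 ± 0.16, adjusted p 0.00301). PAIP2B, which displaces poly(A)-binding protein, fell by 1.22 on the log2 scale (adjusted p 0.00614).

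In the mTORC1 arm 2 of 11 genes tested rose (18.2%) and 1 fell (9.09%), both near the shares over protein-coding genes. RPS6KB2 and MLST8 rose (log2 changes 0.66 and 0.69, adjusted p 0.00966 and 0.0289) and RHEB, the GTPase that activates mTORC1, fell (log2 change -0.70, adjusted p 0.0446). Of 13 elongation, hypusine and termination genes tested, 2 rose (15.4%, also near the share over all genes) and none fell. Those that rose were ETF1, the release factor (log2 change 0.87 ± 0.12, adjusted p 0.00551), and EEF1E1 (log2 change 0.66 ± 0.14, adjusted p 0.0158). EEF1A1 and EEF2, the main elongation factors, did not pass (log2 changes -0.33 and -0.11, adjusted p 0.221 and 0.616). The 3 lists were drawn up with earlier results of these data known.

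Supplying STAG2 to MOLT-14 was followed through 1 library a group, so differences there have no replicate check and no test. A gene was taken as past the mark at 1.5-fold, among those with at least 5 CPM in either library. Of 11123 such genes, 6.98% were past it, 3.78% higher and 3.2% lower with STAG2. Of 50 members, 1 was past it and higher and none was lower. EIF3L had 403 CPM with empty vector and 620.2 CPM with STAG2, a log2 ratio of 0.62 with an exact 95% binomial interval of 0.59 to 0.65 that covers counting error only. The median over the members was 0.07, against 0.03 over all genes. The next were EIF2S3 (log2 ratio 0.47), EIF4B (0.44), EIF3G (0.40) and EIF3H (0.38), and the lowest were EIF5 (-0.37), EIF2AK3 (-0.33) and EIF6 (-0.26).

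EIF5 had 252 CPM with empty vector and 195 CPM with STAG2, and EIF4B had 715 and 969 CPM. These levels depend on the scaling. With the total count as the scale no member was past 1.5-fold, and EIF3L had a log2 ratio of 0.44. By the deposited TPM, which moved the median of all genes to -0.51, 18 members were lower by over 1.5-fold, none was higher, and EIF3L had a log2 ratio of -0.03. By that ratio 39.7% of all genes were past 1.5-fold and 1.84% of these were higher, so the members went the way of all genes. In the elongation, hypusine and termination list 3 of 13 genes were past 1.5-fold, all higher with STAG2, and are named after their values were seen. EEF2, which moves the ribosome along the mRNA, had 2153 CPM with empty vector and 4062 CPM with STAG2, EEF1G had 1951 and 2934 CPM, and DHPS, the first enzyme of hypusine synthesis, had 63.5 and 106 CPM. None of 22 initiation partners and none of 11 genes of the mTORC1 arm was past it.

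The PF-382 and MOLT-14 comparisons share no library and can be set side by side. Of the 22 members that rose in the PF-382 knockout and had a MOLT-14 ratio, 14 (63.6%) were higher with STAG2, against 58.5% of all genes that rose. Of the 6 that fell, 4 (66.7%) were higher with STAG2, against 55.0% of all genes that fell. EIF3L and EIF3H, which fell in knockout, were on the high side with STAG2, but so was EIF5A (219 and 269 CPM, log2 ratio 0.30), which rose in knockout. Whether the knockout change and the change with STAG2 differ was not tested.

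Between the lines, more members were lower in MOLT-14 than higher. A fit of all 7 libraries as 4 groups compared the mean of the MOLT-14 groups with the mean of the PF-382 groups, with the spread taken from the PF-382 groups alone. Of 54 members tested, 12 were higher and 24 lower in MOLT-14 and 18 did not pass (edgeR, adjusted p under 0.05 over 20100 genes). Over all genes 55.4% were called, 28.4% higher and 27% lower, and among protein-coding genes 27.6% were higher and 32.1% lower. The median log2 difference was -0.32 over the members, 0.05 over all genes and -0.07 over protein-coding genes. With upper-quartile scaling 12 were higher and 18 lower. With the cell line as the only term 7 were higher and 13 lower, and against the PF-382 wild type alone 10 were higher and 12 lower. Each of these fits called 42.5% of all genes. The median over the members was -0.36 with the line as the only term and -0.07 against wild type alone, against 0.01 and 0.04 over all genes. The difference between the lines was thus smaller when the knockout libraries were left out.

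EIF5A2 separated the lines most. It had 0 counts in both MOLT-14 libraries, while PF-382 had 31.5 and 24.3 CPM in wild type and 34.03, 38.3 and 43.1 CPM in knockout. Against the level that 3 counts make in each MOLT-14 library (0.0615 CPM with empty vector and 0.0597 CPM with STAG2), it was at least 395-fold lower than in the lowest PF-382 library (adjusted p 1.77e-05). EIF5A, with 219 and 269 CPM in MOLT-14, did not pass between the lines (log2 difference 0.07 ± 0.11, adjusted p 0.603). EIF5A2 lies on chromosome 3, 170888415 to 170908693, minus strand. The upstream sequence is shown because this gene was the one member at 0 in both libraries of a line and present in all libraries of the other. The outer 150 of the 250 bases before the RefSeq start hold 2 copies of CACGTG, the E-box that MYC and related factors can bind, in capitals.
EIF5A2, chr3:170908738-170908887, minus strand: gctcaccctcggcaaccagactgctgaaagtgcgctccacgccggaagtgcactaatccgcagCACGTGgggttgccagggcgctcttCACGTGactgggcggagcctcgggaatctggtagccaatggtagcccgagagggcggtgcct
This palindrome, which reads the same on both strands, stood in the 250 bases before the start of 12 of 47 members (25.5%), against 9.83% of protein-coding genes and 6.34% of all starts. Of the 12, 4 rose and 2 fell in the PF-382 knockout, and of the 33 tested members without it 18 rose and 2 fell, which is 33.3% and 54.5% rising. Among all protein-coding genes tested the order was the other way, with 25.8% of 1149 with the palindrome and 19.7% of 8977 without it rising. A match of letters shows no binding.

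The other large differences that were lower in MOLT-14 were in cap binding, eIF2 and eIF3 genes. EIF4E had 50.9 and 55.9 CPM in MOLT-14 against 109.7 and 146 in PF-382 wild type and 140.1, 141 and 153 in knockout (log2 difference -1.35 ± 0.15, adjusted p 0.000627). EIF3E had 205 and 232 CPM in MOLT-14 (log2 difference -1.24 ± 0.16, adjusted p 0.00111), below all PF-382 libraries. EIF2A, a separate initiator tRNA carrier and not a subunit of eIF2, had 55.8 and 67.6 CPM in MOLT-14 against 144 and 148 in PF-382 wild type and 131, 134 and 129.99 in knockout (log2 difference -1.17 ± 0.10, adjusted p 0.000268). EIF2S3B, which may share reads with EIF2S3, had 8.08 and 9.02 CPM (log2 difference -1.31, adjusted p 0.000876).

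EIF4G2 had 498 and 499 CPM in MOLT-14 against 767 and 693 in PF-382 wild type and 1206, 1202 and 1327 in knockout (log2 difference -0.93 ± 0.13, adjusted p 0.00163), and against wild type alone it did not pass (-0.55, adjusted p 0.140). EIF4EBP1 had 43.1 and 37.6 CPM (log2 difference -0.86, adjusted p 0.0150) and was lost without the MOLT-14 library with STAG2 (0.0692). EIF2S2 had 196 and 187 CPM (log2 difference -0.80, adjusted p 0.00321). In each of these genes both MOLT-14 libraries were below all 5 PF-382 libraries.

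Among the members higher in MOLT-14, EIF4E3, a cap-binding relative of low abundance, had 2.50 and 3.03 CPM there and 0.0655 to 0.594 CPM in PF-382 (log2 difference 3.58 ± 0.51, adjusted p 0.00167). EIF3C had 225 and 282 CPM in MOLT-14 against 69.2 and 61.2 in PF-382 wild type and 149.9, 114 and 108 in knockout (log2 difference 1.49 ± 0.15, adjusted p 0.000488). EIF5B, the GTPase that joins the subunits, had 58.9 and 54.8 CPM in MOLT-14 against 19.3 and 25.3 in wild type and 41.1, 25.95 and 25.4 in knockout (log2 difference 1.12 ± 0.22, adjusted p 0.00601). EIF1 had 317 and 290.2 CPM in MOLT-14 (log2 difference 1.03 ± 0.12, adjusted p 0.000849). For these 4 genes both MOLT-14 libraries were above all PF-382 libraries.

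Smaller differences of this direction were EIF2B4 (29.04 and 29.1 CPM, log2 difference 0.69, adjusted p 0.00268) and EIF3CL (129.9 and 121 CPM, 0.61, adjusted p 0.0136). EIF4A3 had 121 and 153 CPM in MOLT-14 against 75.2 and 69.6 in wild type and 112, 121 and 114 in knockout (0.57, adjusted p 0.00331). Its empty-vector value was close to the knockout values, and its value with STAG2 was above them. EIF4ENIF1 had 38.7 and 45.7 CPM in MOLT-14 against 24.8 and 32.6 in wild type and 33.3, 28.8 and 28.8 in knockout (0.51, adjusted p 0.0236). The call of EIF4ENIF1 was lost without the MOLT-14 library with STAG2 (0.131), without knockout 2 or 3 (0.0643 and 0.0604) and against wild type alone (0.0835), and that of EIF3CL without the empty-vector library (0.0539). With the cell line as the only term, EIF4A3 and EIF3CL did not pass (0.134 and 0.356). Of the 54 members, 19 were called both between the PF-382 groups and between the lines, in comparisons that share the PF-382 libraries. The share of all genes called in both was not computed, so this count is not read as a trait of the members. Of the other lists, 3 initiation partners were higher (13.6%) and 10 lower (45.5%) in MOLT-14 of 22 tested. In the mTORC1 arm 4 genes were higher and 4 lower of 12 (33.3% each), near the shares over protein-coding genes, 27.6% and 32.1%. Of 14 elongation, hypusine and termination genes 2 were higher and 2 lower (14.3% each), below those shares.

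**Figure D4:**
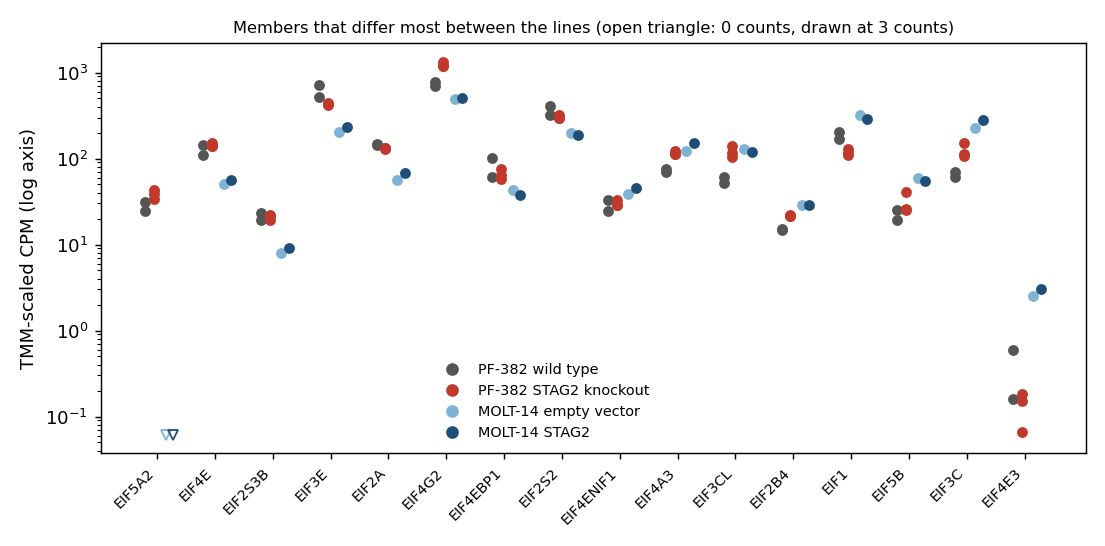
TMM-scaled CPM on a log axis of the 8 members with the largest differences in each direction between the lines, 1 point per library, from those lowest in MOLT-14 on the left to those highest on the right. Open triangles mark 0 counts and are drawn at the level of 3 counts, which is where both MOLT-14 libraries lie for EIF5A2, against 24.3 to 43.1 CPM in PF-382.

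By start class, the 10 members with a C and at least 4 pyrimidines at the annotated start had a median log2 change of -0.15 in the PF-382 knockout, with 1 of them up (EIF3K), 1 down (EIF3F) and 8 not called. Of the 35 tested members with another start, 21 rose and 3 fell, with a median of 0.58, and 29 had a positive change, against 2 of the 10. All 765 tested protein-coding genes with such a start had a median of -0.05 (98 rose, 129 fell), and the 9361 others a median of 0.11 (1969 rose, 1087 fell). In MOLT-14 the same 10 members had a median log2 ratio of 0.18 with STAG2, 8 of them positive. The 31 others with a ratio had a median of 0.03, 18 of them positive, and the medians over all such protein-coding genes were 0.10 and 0.03. Between the lines 8 of the 10 were lower and 1 higher in MOLT-14, and of the 35 others 11 were lower and 9 higher. Over all tested protein-coding genes the start classes were alike, with 33.8% of 805 with such a start lower and 25.1% higher. Of the 10156 with another start, 33.1% were lower and 27.2% higher. The 9 members without a start in the table, which include EIF3E, EIF3H and EIF3L, had 1 rise and 3 falls in the PF-382 knockout.

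**Figure D5:**
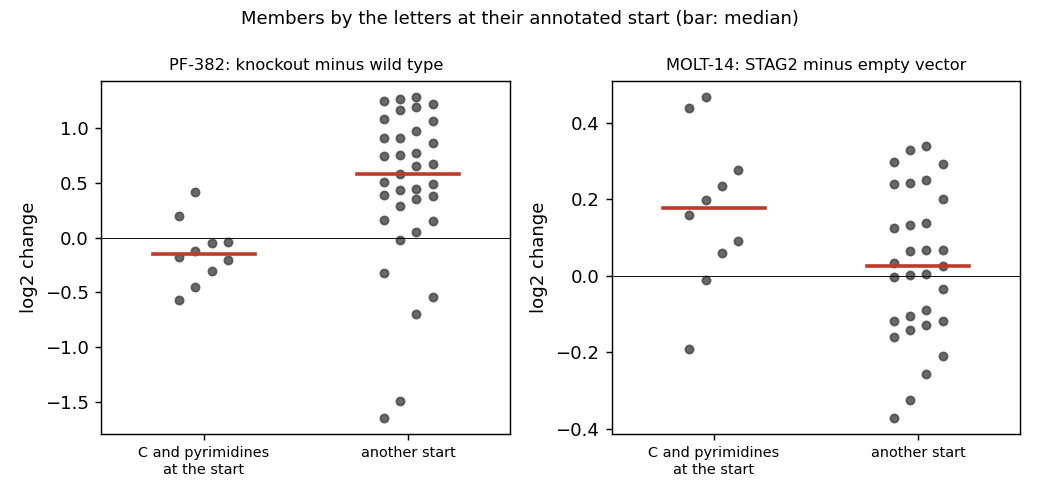
Log2 change of each member by the letters at its annotated start, on the left for PF-382 knockout minus wild type and on the right for MOLT-14 with STAG2 minus empty vector. Each point is 1 gene and the red bar is the median, which is -0.15 and 0.58 on the left and 0.18 and 0.03 on the right.

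Across the series the levels of members per length spanned a wide range. On the scale of TPM among protein-coding genes, averaged over the 7 libraries, EIF3L (956) and EIF4A1 (895) were highest, followed by EIF4B (540.5), EIF3E (511) and EIF3M (443). The order of the leading pair turned between groups. EIF3L was at 1269 and 1403 TPM and EIF4A1 at 625 and 525 TPM in wild type, while in knockout EIF3L was at 799.7, 784 and 718 TPM and EIF4A1 at 1101, 1152 and 1157 TPM. The values of the pair do not overlap within either group. In MOLT-14 they do, with EIF3L at 774 TPM with empty vector and 943 TPM with STAG2 and EIF4A1 at 867 and 838 TPM. At the low end were EIF4EBP3 (14.2), EIF5AL1 (2.50), EIF4E3 (0.454) and EIF4E1B (0.0334), and the inhibitory kinases lay between 15.8 (EIF2AK3) and 67.7 (EIF2AK1).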

How the data were processed

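Total RNA of 7 libraries was sequenced. Per the submitters' processing notes STAR and RSEM were used with GRCh38 and hg38, and versions, annotation release and strand setting are not given in the sources used here. The authors deposited expected counts per gene (estimated reads, not normalised, per the file headers), which were rounded here (91.8% to 93.3% were whole). The authors' TPM in the same files was used for levels between genes and for ratios, and the authors' FPKM was not used. The 92 ERCC features were left out of 60754. The rounded counts went into edgeR 4.0.16 under R 4.3.3 (TMM factors, filterByExpr, two-sided quasi-likelihood test, Benjamini-Hochberg over all genes, threshold 0.05), over the 5 PF-382 libraries and over all 7. The biological coefficient of variation was 0.242 in PF-382. CPM values carry the TMM factors of all 7 libraries, and log2 changes in PF-382 those of its own fit. Standard errors were derived from the log2 change and the F statistic. MOLT-14 ratios used a prior count of 2. The code was tested on simulated data. DESeq2 1.42.0 was an alternative. Positions came from GENCODE 29 (GRCh38) and starts from RefSeq (GRCh38.p14).

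The members and lists were chosen with earlier results of these data known. Values by library are given for the members with the 12 smallest adjusted p in each direction in PF-382, the 8 largest called differences in each direction between the lines, and the most abundant member of each role, and up to 3 called genes in each direction from each other list. The eIF3 octamer, the ratios and the letters at starts were added after the values were seen. Total depth limits the precision of low genes such as EIF4E3.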

Additional observations from a re-analysis of the deposited data

How the results depend on the processing

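Of the members tested in PF-382, 23 rose and 7 fell. With upper-quartile scaling 11 fell, and without genes with fractional counts, which left 30 members, 13 rose and 2 fell. In a fit of all 7 libraries with cell line and STAG2 level as additive terms 0 of 20100 genes were called by edgeR, and 0 members rose or fell (at an unadjusted p under 0.05, 18 members rose and 7 fell, and 4654 genes passed). That fit assumes the same change in both lines. With the code letters of the titles as a second term, an alternative chosen after seeing the data, 8 rose and 0 fell by edgeR (23 and 5 at an unadjusted p under 0.05), and the cause was not tested beyond the comparison resting on 1 knockout library. DESeq2 gave 24 and 9, no filter on low counts 24 and 5, a minimum of 1 CPM 21 and 9, and protein-coding genes alone 20 and 9. With 1 library left out 17 to 27 rose and 0 to 10 fell. Without knockout 2, where edgeR called 0 falls among the members and 14.1% of all genes in either direction, 7 members fell at an unadjusted p under 0.05. Over all genes 5857 of 16586 were under that level in either direction. No called member changed direction in PF-382 under any of these.

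Between the lines 12 were higher and 24 lower in MOLT-14. Without genes with fractional counts 13 were lower, with the cell line as the only term 7 were higher and 13 lower, and against PF-382 wild type only 12 were lower. With the line as the only term, and also against wild type only, 42.5% of all genes were called. EIF5 and EIF4EBP2, which were lower in MOLT-14 (log2 difference -0.33 and -0.31), had 0.15 and 0.033 against wild type only. Both genes rose in the PF-382 knockout (log2 change 0.91 and 0.67). The knockout libraries are part of the PF-382 mean in the first contrast and are absent from the second. Their part in the change of sign was not tested. With 1 library left out 8 to 12 were higher and 17 to 29 lower. In MOLT-14, scaling by the total count and a 2-fold mark each left 0 members higher, and the ratio of the deposited TPM gave 0 higher and 18 lower, with EIF3L at -0.031.

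No paired analysis was possible because the labels give no shared replicate numbers, and no wild-type library has the code letters SB.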

Other observations

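Small nucleolar RNAs lie in introns of several members, and those tested fell in the PF-382 knockout, in 2 hosts that rose and 1 that was not called. The annotation places 15 such genes in members, of which 7 reached 1 CPM in some library and 6 were tested. In EIF4A1, which rose (log2 change 1.16), SNORA48 had 144 and 70.9 CPM in wild type and 35.1, 26.4 and 26.01 CPM in knockout (log2 change -1.91, adjusted p 0.00719), SNORD10 fell by 1.66 (adjusted p 0.0110) and SNORA67 fell by 2.08 (adjusted p 0.0234). In EIF4G2, which also rose (0.74), SNORD97 fell by 1.20 (adjusted p 0.00841). In EIF4A2, which was not called (-0.05), SNORA63 fell by 1.18 (adjusted p 0.00792) and SNORA63B, at 1.06 CPM at most, fell by 2.75 (adjusted p 0.0142). Of all 89 genes of this kind tested, 2 rose and 70 fell, with a median log2 change of -1.91, so the 6 went the way of their class. The share of short RNA in the libraries was 21.0% and 14.9% in wild type and 11.96% to 13.98% in knockout. That share counts genes of this class too, so it is not a separate measure. Its part in these changes was not tested.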
